A study of Xenopus tropicalis with 2 samples.

Results

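The cells described here carried the name Satellite Cells/Differentiating Myotome, 1 of 18 cluster names in the authors' deposited table of single cells from Xenopus tropicalis tadpole tails. Every cell with that name was taken, and its transcript counts were read from the raw matrices by barcode and library. This gave 246 of 3707 cells, of which 141 of 2617 came from the uninjured library and 105 of 1090 from the library made 24 h after tail amputation (24hpa).

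Both libraries were made from GFP+ cells sorted from tails of the pax6:GFP line, in which a pax6 promoter drives GFP. The same transgenic animals carry cryga:RFP and actc1:RFP, driven by a lens crystallin and a muscle actin promoter, in the uninjured and the amputated tadpoles alike. Tail tips of intact tadpoles at NF stage 41, which is 3 days of development, made the uninjured sample. For 24hpa, tails were amputated at the same stage and the tissue regrown over the next 24 h was collected. Tails of many tadpoles were dissociated together and each condition gave 1 library, so no difference between the conditions has a replicate check and no p-value is given. Amputation, a further day of age, the piece of tail taken and the library itself differ together and cannot be told apart.

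The trunk and tail muscle of vertebrates comes from paraxial mesoderm. Presomitic mesoderm at the tail end is cut into somites by a segmentation clock of Notch and Hes genes running against gradients of Wnt and FGF signals. Each somite then forms a dermomyotome, an epithelial sheet that supplies muscle progenitors, and a myotome, in which Myf5 and the related factors drive differentiation. Satellite cells are the muscle stem cells that descend from the dermomyotome, and in tadpole tails they supply the muscle of the regenerate. Pax6 itself is a neural transcription factor and is no marker of any of these cells.

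UMIs (unique molecular identifiers, each standing for 1 captured transcript) summed to 1385907 over the cluster's uninjured cells and to 2493252 over its 24hpa cells. Cells at 24hpa were deeper, with a median of 23549 UMIs and 3162 genes (range 3191 to 72792 UMIs) against 9345 UMIs and 2218 genes in uninjured cells (2816 to 35256). The other cells differed less, with medians of 8208.5 UMIs (uninjured) and 9671 UMIs (24hpa). Levels are therefore given as CPM, the UMIs of a gene summed over the cluster's cells of a library per 1000000 UMIs of those cells, with exact Poisson 95% intervals, and shares of cells are also given after thinning every cell to 2816 UMIs. All intervals cover counting error only. No barcode of the cluster was shared between the libraries, and 0 of its cells were marked as doublets by Scrublet, which marked 8 of 2617 and 4 of 1090 cells over all clusters, too few to say that doublets were found.

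The cluster took 5.39% of the sorted uninjured cells (exact 95% interval 4.55 to 6.32) and 9.63% of those at 24hpa (7.95 to 11.5). The second share was larger by 4.25 percentage points (Newcombe 95% interval 2.38 to 6.30). Of the clusters with related names, Myotome held 81 uninjured and 184 24hpa cells, Dermomyotome 143 and 27, and Skeletal Muscle 412 and 59. The sort sets these shares as well as the tissue does. Although the cells were sorted for a pax6 reporter, 4 UMIs of pax6 were found in 1 uninjured cell of the cluster and 0 in the 105 cells at 24hpa, against 10.3 and 4.78 CPM in the other cells.

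The name was checked against 4 markers, which did not behave alike. The gene msgn1, mesogenin 1, encodes a transcription factor of presomitic mesoderm. It had 82 UMIs in 17 uninjured cells of the cluster (12.1% of cells, 7.18 to 18.6, and 8.46% after thinning), which were 80.4% of all msgn1 UMIs in that library's cells. At 24hpa it had 0 UMIs in the cluster's 105 cells, which at 3 cells of 105 allows a share of cells with a UMI of up to 2.86%, and 0 in all other cells. The paraxial protocadherin gene pcdh8.2, an adhesion molecule of presomitic mesoderm and forming somites, followed msgn1 with 52 UMIs in 18 uninjured cells and 0 UMIs at 24hpa. Within the cluster and at this depth, both were thus detected in uninjured cells only.

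The gene chrd, which encodes the secreted BMP antagonist chordin, was found in 34.8% of uninjured cells and 10.5% of 24hpa cells (18.6% and 3.19% after thinning). Its level was 118 CPM (101 to 138) in the uninjured library and 12.8 CPM (8.78 to 18.1) at 24hpa. The fourth marker, dmrt2, encodes a transcription factor of the dermomyotome and went the other way in its share of cells, with 20.6% of uninjured and 49.5% of 24hpa cells, or 7.90% and 13.2% after thinning. Its levels were close, at 33.9 CPM (24.9 to 45.1) and 48.5 CPM (40.3 to 58.0). In the other cells it was at 0.36 CPM (uninjured) and 2.35 CPM (24hpa). In Skeletal Muscle, which should lack these markers, msgn1 and dmrt2 had a UMI in 0 of 412 uninjured cells and chrd in 9 (2.18%), at a median of 9553 UMIs per cell.

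Markers on either side of the name were present to different degrees. The myogenic factor gene myf5, expressed in muscle progenitors, had a UMI in 74.5% of uninjured and 76.2% of 24hpa cells. The gene myog, myogenin, which acts in differentiation, was found in 14 uninjured cells and 6 cells at 24hpa, and its level of 25.3 and 6.02 CPM was far below the 166 and 82.1 CPM of Skeletal Muscle. The genes pax7, pax3, myod1 and tbx6 were sought, but each had either no gene of that name or fewer than 20 UMIs in the cluster. The genes pax7 and pax3 could therefore not be used to check the satellite part of the name.

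**Figure D1:**
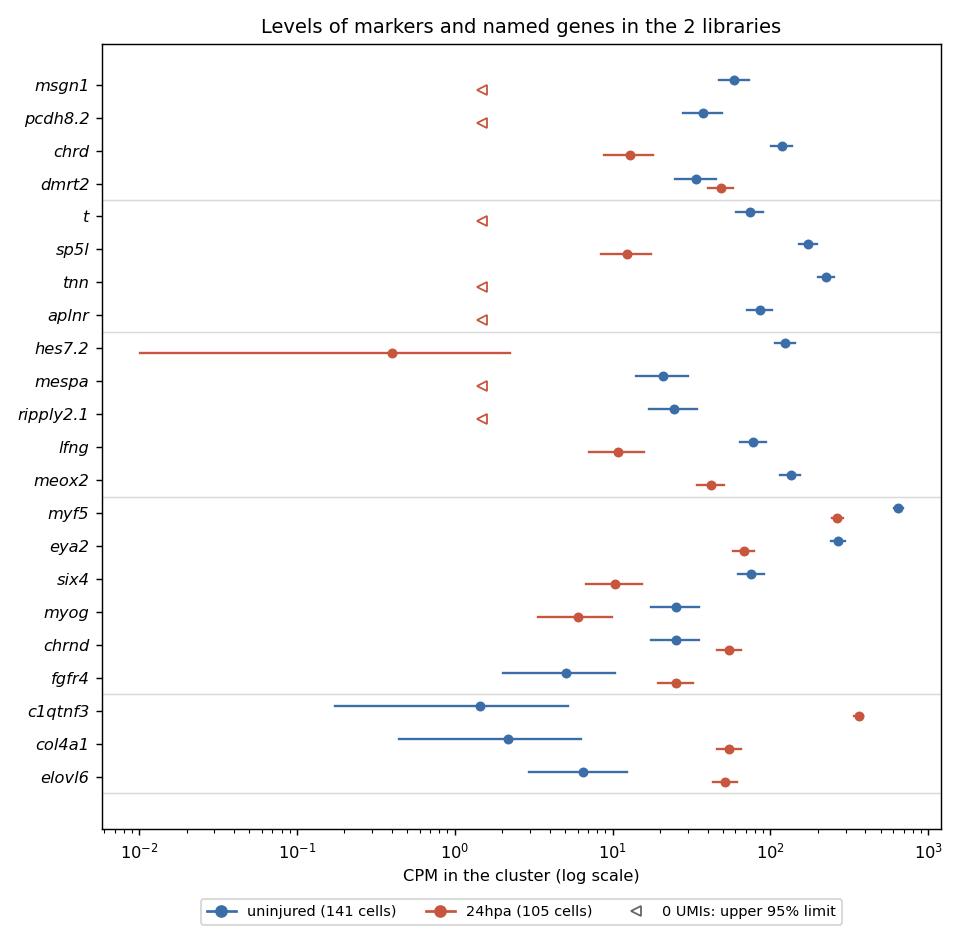
Level of markers and named genes in the cluster, in CPM on a log axis, for uninjured (141 cells, blue) and 24hpa (105 cells, red); bars are exact Poisson 95% intervals and open triangles mark the upper limit where 0 UMIs were counted. The presomitic genes msgn1, pcdh8.2, t, tnn and aplnr had no UMI at 24hpa, myf5 stood at 645 and 266 CPM, and c1qtnf3 at 1.44 and 364 CPM.

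Genes that set the cluster apart from the other cells of the same library were listed as a description, since the clusters were built from these genes. Of 2683 genes with at least 50 UMIs in the cluster in each library, 99 (3.69%) were at least 2-fold above the other cells in both. First in the order of the lower of both ratios was entpd2, which encodes an enzyme that breaks down extracellular ATP, at 2688 CPM (2602 to 2776) in uninjured cells, 30.4-fold over the other cells, and 891 CPM (854 to 929) at 24hpa, 25.0-fold over them. It was found in 97.2% and 86.7% of the cluster's cells. The Wnt inhibitor gene wif1 followed at 1872 and 361 CPM, 20.4-fold and 27.7-fold over the other cells. The gene myf5 was at 645 CPM (603 to 689) and 266 CPM (246 to 287), 11.5-fold and 27.0-fold over them.

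Extracellular matrix genes were next to these. The gene kal1, which encodes the matrix protein anosmin, was at 412 and 202 CPM (41.5-fold and 7.86-fold), and efemp2, which encodes a fibulin of elastic fibres, was at 2481 and 529 CPM (28.0-fold and 5.72-fold). Transcription regulators of somites and muscle progenitors were also among the first 20, with the homeobox gene meox2 at 134 and 42.1 CPM and eya2, which encodes a transcriptional coactivator, at 269 and 68.2 CPM. The secreted Wnt modulator gene sfrp2 stood at 825 CPM (778 to 875) and 852 CPM (816 to 889), a level that hardly differed between the libraries.

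Against the 17 other clusters taken singly, entpd2, wif1, myf5, efemp2, eya2, cdc42ep3, dmrt2 and polr2h were highest in this cluster in both libraries. The next level was not always far below. For wif1 it was 365 CPM in uninjured Skeletal Muscle, where 82.3% of cells had a UMI, and 280.0 CPM in Bipotent Progenitor at 24hpa. For myf5 it was 258 CPM in uninjured Skeletal Muscle and 101 CPM in Bipotent Progenitor at 24hpa. The gene sfrp2 was instead higher at 24hpa in Mesenchyme, at 1349 CPM.

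**Figure D2:**
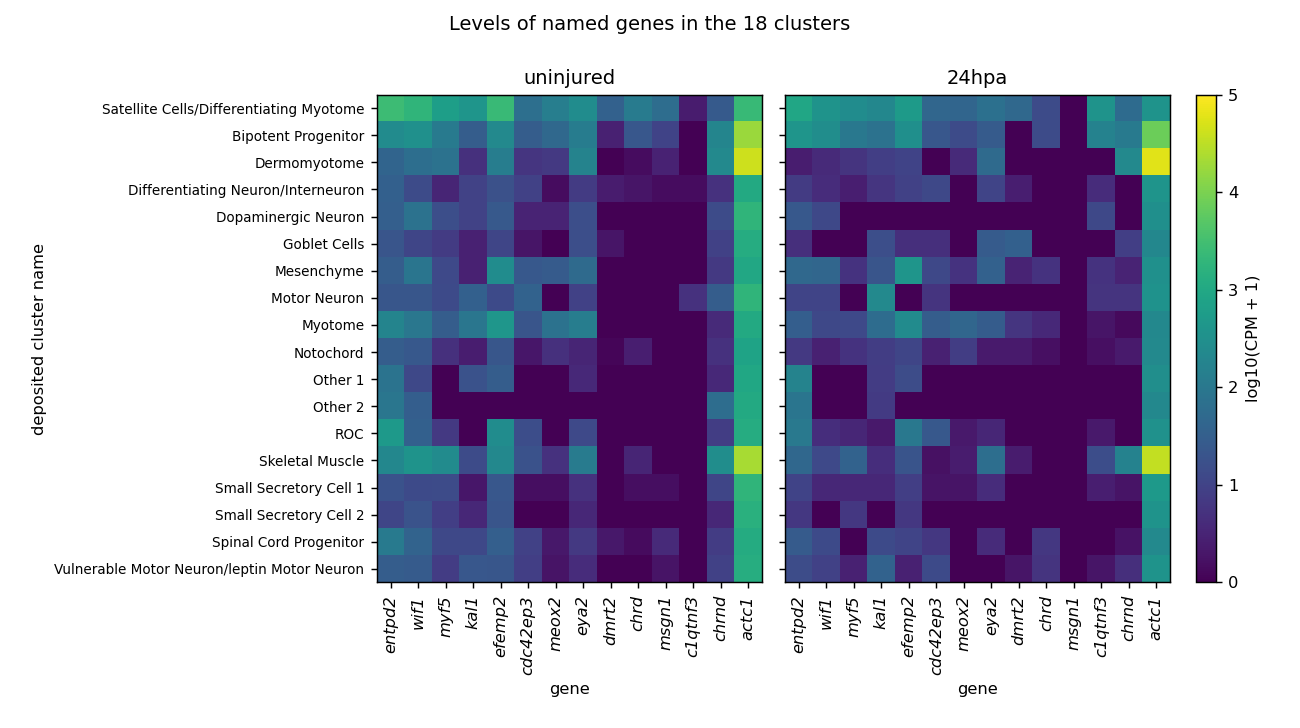
Levels of 14 named genes (columns) in the 18 deposited clusters (rows), as log10(CPM + 1), for the uninjured library (left) and 24hpa (right). The top row is the cluster described; entpd2, wif1 and myf5 are brightest there in both panels, msgn1 is dark in every row at 24hpa, and actc1 is brightest in Dermomyotome and Skeletal Muscle and present in every row.

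Most of these cells were called as cycling in the deposited table. S phase was called in 56.7% of uninjured (48.1 to 65.0) and 58.1% of 24hpa cells (48.1 to 67.7), and G2M in 27.0% (19.8 to 35.1) and 32.4% (23.6 to 42.2). G1 took 16.3% and 9.52%, against 61.2% and 64.0% of the other cells. The libraries differed by 1.36 points for S (-11.0 to 13.6), 5.43 for G2M (-5.92 to 17.0) and -6.79 for G1 (-15.0 to 2.03), and each of these intervals, which cover the counting of cells in these 2 libraries only, includes 0. Summed genes of S phase stood at 2507 and 2147 CPM in the cluster and 1140 and 1136 CPM in the other cells, and genes of G2M at 3238 and 2621 CPM against 1839 and 2175 CPM. In Skeletal Muscle, 0.485% of uninjured and 3.39% of 24hpa cells were called in S or G2M, against 83.7% and 90.5% in the cluster. High shares were not particular to the cluster, with 90.1% and 75.0% in Myotome and 92.3% and 84.9% in Spinal Cord Progenitor.

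The 2 libraries were then compared within the cluster, to describe how its cells differed between intact tails and regenerating tissue. Of 4977 genes that reached 50 UMIs when both libraries were added, 359 (7.21%) were at least 2-fold higher at 24hpa and 770 (15.5%) at least 2-fold lower, where 2-fold is a rule of size and not a test. In the other cells 7.2% were higher and 8.47% lower. The median log2 ratio of 24hpa over uninjured was -0.18 over all genes, and scaling by TMM removed it by a shift of -0.17, which made the split 501 higher and 590 lower, so ratios are read here against a median just below 0.

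**Figure D3:**
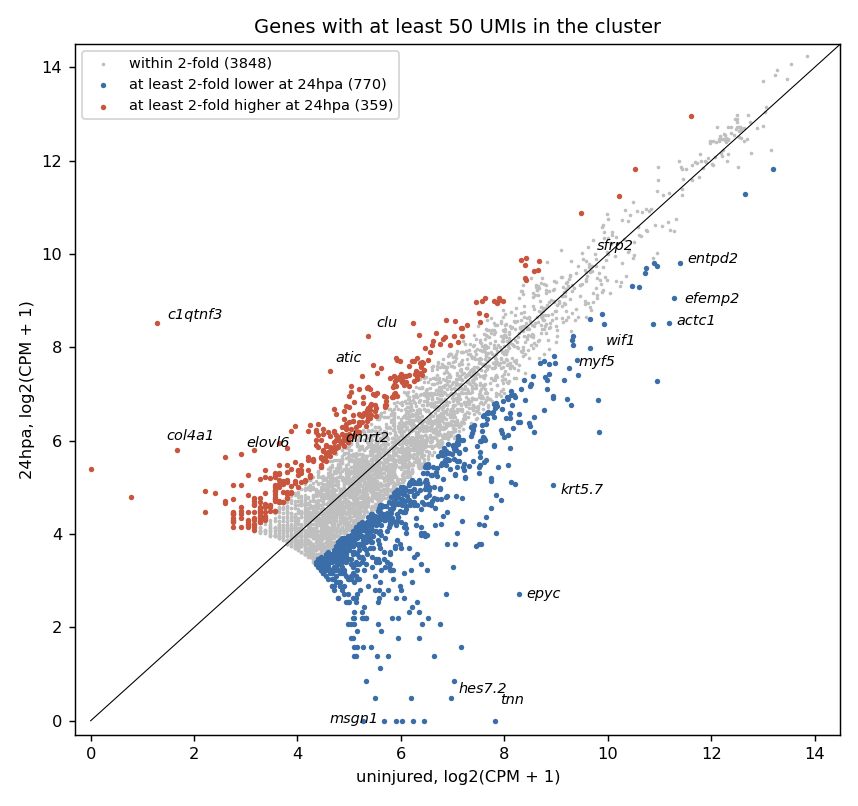
Level of each of the 4977 genes with at least 50 UMIs, as log2(CPM + 1), in uninjured (horizontal) and 24hpa (vertical) cells of the cluster; the line marks equal levels. Red points are the 359 genes at least 2-fold higher at 24hpa and blue points the 770 at least 2-fold lower; tnn, hes7.2 and msgn1 lie on or near the lower edge and c1qtnf3 far above the line.

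Genes of the presomitic mesoderm and the segmentation clock were lower at 24hpa. Much of this difference lay in 29 uninjured cells (sub-cluster 6 of those described later) that formed a group with 0 cells at 24hpa. These held all 82 UMIs of msgn1, all 52 of pcdh8.2, 93 of the 103 of t and 151 of the 172 uninjured UMIs of hes7.2. Without the sub-clusters held by 1 library, the median log2 ratio of the presomitic list was -2.25, from 1 gene, and that of the clock list -2.27, from 5 genes. Of the presomitic list, 5 genes had 50 UMIs and all 5 were at least 2-fold lower, with a median log2 ratio of -4.96, and at a minimum of 20 UMIs these were 8 of 8 with a median of -4.12 (7.12% of 6851 genes higher and 18.7% lower at that minimum). Summed over the list, the level was 443 CPM in uninjured and 22.9 CPM in 24hpa cells. The gene t, Brachyury, a T-box factor of the tail bud, had 103 UMIs in 24 uninjured cells and 0 at 24hpa, at least 61.8-fold lower against a floor of 3 UMIs over the group. The Sp factor gene sp5l, a target of Wnt signals, was in 56.7% of uninjured cells at 173 CPM (152 to 197) and in 16.2% of 24hpa cells at 12.4 CPM (8.45 to 17.6). The caudal genes cdx2 and cdx4, which pattern the posterior body, had 29 and 25 UMIs in uninjured cells and 0 at 24hpa. The gene wnt5b was at 33.2 CPM in 30 uninjured cells and 6.82 CPM in 13 cells at 24hpa, and its log2 ratio without the sub-clusters held by 1 library was -0.89, no longer 2-fold.

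Clock and boundary genes had the same direction. All 7 with 50 UMIs were at least 2-fold lower (median -3.03), as were all 13 with 20 UMIs (median -3.72), and the list summed to 755 CPM in uninjured and 97.5 CPM in 24hpa cells. The oscillating repressor gene hes7.2 had 172 UMIs in 39 uninjured cells and 1 UMI at 24hpa, and its log2 ratio was -8.27 (-13.59 to -5.78). Genes that set the somite boundary were at 0, with 29 UMIs of mespa and 34 of ripply2.1 in 9 and 11 uninjured cells and none at 24hpa. The Notch ligand genes dlc and dll1 had 31 and 25 UMIs in uninjured cells and 1 UMI each at 24hpa. Other genes of the list were lower as well but still detected at 24hpa. The Notch modifier gene lfng was at 77.9 CPM (63.9 to 94.1) and 10.8 CPM (7.14 to 15.8), and the receptor gene notch1 at 65.7 CPM (52.9 to 80.6) and 8.02 CPM (4.90 to 12.4). The ephrin gene efnb2 and its receptor gene epha4, which act in cell sorting at somite borders, had 44 and 23 UMIs against 6 and 1. The homeobox gene uncx, of the posterior half-somite, was at 36.8 and 3.61 CPM.

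Muscle progenitor genes were lower in most cases, with exceptions in both lists. In the satellite and dermomyotome list, 8 of 11 genes were at least 2-fold lower and 1 higher (median -1.58), and the summed level was 2019 CPM in uninjured and 771 CPM in 24hpa cells. The chemokine receptor gene cxcr4, which guides migrating progenitors, was at 452 CPM (418 to 489) and 138 CPM (123 to 153). The homeobox gene six4 was at 75.8 and 10.4 CPM and the cadherin gene cdh11 at 181 and 42.1 CPM, while zic1, a zinc finger gene of the dorsal somite, was within 2-fold at 50.5 and 32.1 CPM. The single higher gene was wnt11, a noncanonical Wnt ligand, at 33.2 CPM (24.3 to 44.3) in uninjured and 67.8 CPM (57.9 to 78.8) in 24hpa cells.

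In the differentiating myotome list, 9 of 12 genes were at least 2-fold lower and 2 higher (median -1.33, summed level 1901 and 713 CPM). The chaperone gene unc45b, which folds myosin, was at 31.0 and 4.81 CPM, and rbm24, which encodes a splicing regulator of muscle, at 190 CPM (168 to 214) and 72.6 CPM (62.4 to 84.0). The gene myf6, a late myogenic factor, had 22 UMIs in 15 uninjured cells and 0 at 24hpa. The higher genes were chrnd, which encodes the delta subunit of the muscle acetylcholine receptor, at 25.3 CPM (17.6 to 35.1) and 54.9 CPM (46.1 to 65.0), and the receptor gene fgfr4, at 5.05 CPM (2.03 to 10.4) and 25.3 CPM (19.4 to 32.3). Other genes of the neuromuscular junction were not higher with it, since chrng was at 15.9 and 2.41 CPM, chrna1.2 at 59.2 and 24.9 CPM, and rapsn, which anchors the receptor, within 2-fold at 28.1 and 21.3 CPM. Without the sub-clusters held by 1 library (sub-clusters 3 and 6 of those described later), the log2 ratio of chrnd was -0.45 and that of fgfr4 was 0.96, so neither was 2-fold higher among the remaining cells. The differentiating myotome list was lower in the other cells too, in 13 of 18 genes (median -1.40). It was lower in 2 of 3 genes in Myotome, 7 of 15 in Dermomyotome and 10 of 18 in Skeletal Muscle. Of all genes, 8.71%, 31.5% and 31% were lower in these clusters, and 8.47% in the other cells.

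Genes of the contractile apparatus were measured beside free RNA. The sarcomere list summed to 5733 CPM in uninjured and 1248 CPM in 24hpa cells of the cluster, with 9 of 12 genes at least 2-fold lower and 0 higher (median -1.67). The muscle actin gene actc1 was in every cell of the cluster in both libraries, at 2317 and 369 CPM. Clusters that should lack it were near these levels, with 1904 and 497 CPM in Small Secretory Cell 1 and 1193 and 228 CPM in Spinal Cord Progenitor, and barcodes of at most 100 UMIs, which hold free RNA, held 11827 and 11043 CPM. The fast troponin gene tnni2 was likewise at 98.1 and 31.3 CPM in the cluster and at 1087 and 1903 CPM in these near-empty barcodes. At the share of free RNA that globin UMIs gave (described later), free RNA would hold 58.3 and 45.2 CPM of tnni2 in the cluster, more than was measured at 24hpa. It would hold 634 and 262 CPM of actc1, less than was measured. With that amount subtracted, the log2 ratio of actc1 went from -2.65 to -4.03. In the uninjured library both clusters that should lack actc1 were above such an amount, and how much of the cluster's actc1 came from its own cells was not settled. In sub-cluster 7, described later, it was 4778 CPM over both libraries.

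Genes of the signalling lists were mostly lower or within 2-fold. In the FGF list, 8 of 9 genes were at least 2-fold lower and fgfr4 was the exception (median -2.06, sum 694 and 202 CPM). The list was highest in sub-cluster 6, of uninjured cells only, at 912 CPM against 197 to 477 CPM in the other sub-clusters. The receptor gene fgfr1 was at 214 CPM (190 to 239) in 73.8% of uninjured cells and 34.1 CPM (27.2 to 42.2) in 50.5% of 24hpa cells. Its feedback inhibitor gene spry1 was at 116 and 26.9 CPM, and egr1, an immediate early target of the pathway, at 37.5 and 2.01 CPM. In the Wnt list, 10 of 15 genes were lower and 1 higher (median -1.17), among them the receptor genes lgr4, at 46.9 and 5.21 CPM, and fzd7, at 49.8 and 11.2 CPM.

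In the BMP and TGF-beta list, 7 of 17 genes were at least 2-fold lower and 0 higher (median -0.84). Besides chrd these were led by the ligand genes tgfb2, at 54.8 and 8.42 CPM, and bmp7.1, at 123 and 40.9 CPM, and the receptor gene acvr1, at 92.4 and 31.3 CPM. In the Notch list 4 of 8 were lower (median -1.29), and in the retinoic acid list 3 of 4 (median -1.59). The Notch list too was highest in sub-cluster 6, at 1229 CPM against 304 to 712 CPM in the others. This list overlaps the clock list, and hes7.2, which is in both, was at 526 CPM in sub-cluster 6. The gene cyp26b1, which encodes an enzyme that degrades retinoic acid, was at 41.8 CPM (31.8 to 54.1) and 2.01 CPM (0.651 to 4.68).

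Hox genes, which give cells their position along the body axis, were lower in 14 of 15 cases (median -1.98, sum 1538 and 441 CPM). Their sum was 2880 CPM in the uninjured-only sub-cluster 6 and 329 to 966 CPM in the other sub-clusters. The most posterior class was led by hoxa13, in 75.2% of uninjured cells at 193 CPM (171 to 218) and in 23.8% of 24hpa cells at 17.2 CPM (12.5 to 23.2). More anterior members were lower too, with hoxb7 at 55.6 and 3.61 CPM, hoxc8 at 36.1 and 6.02 CPM and hoxc4 at 39.0 and 3.61 CPM, although the log2 ratio of hoxb7 went from -3.94 to -0.83, within 2-fold, without the sub-clusters held by 1 library. The direction was not confined to these cells. Hox genes were at least 2-fold lower at 24hpa in 9 of 16 cases in Myotome, 10 of 11 in Dermomyotome and 13 of 14 in Skeletal Muscle, where 8.71%, 31.5% and 31% of all genes were lower. FGF genes were lower in 9 of 13, 3 of 3 and 8 of 10 cases in the same clusters. Whether the difference in the piece of tail taken moved the Hox levels was not tested.

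**Figure D4:**
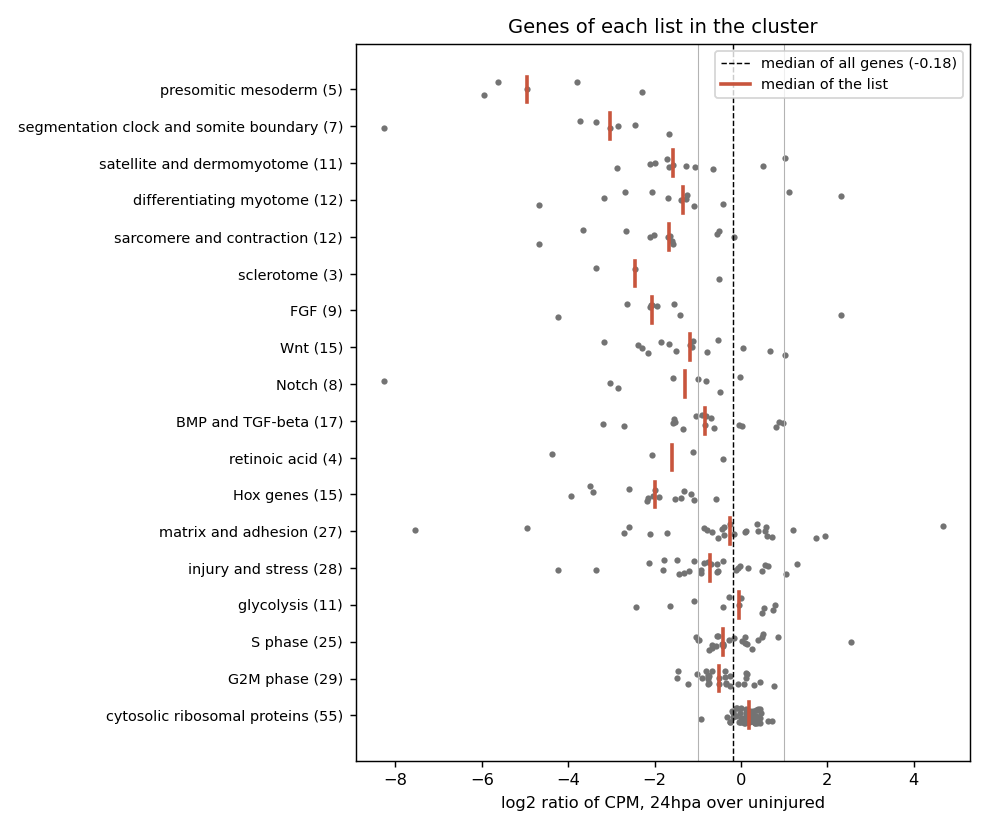
Log2 ratio of CPM, 24hpa over uninjured, of each gene with at least 50 UMIs in the cluster (points), by gene list, with the number of genes in parentheses, the median of the list as a red bar and the median of all genes (-0.18) as a dashed line; grey lines mark 2-fold. The presomitic (-4.96) and clock (-3.03) lists lie farthest to the left, and the 55 cytosolic ribosomal protein genes lie within 2-fold with a median of 0.19.

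The genes with the highest ratios at 24hpa came from no single list. The first was c1qtnf3, which encodes a secreted protein of the C1q and TNF related family. It had 2 UMIs in 2 uninjured cells and 908 UMIs in 53 cells at 24hpa, or 1.44 CPM (0.175 to 5.21) and 364 CPM (341 to 389), and its log2 ratio was 7.98 (6.12 to 11.03). After thinning it was found in 0.65% and 32.4% of cells. The cluster held 92.8% of the UMIs of this gene in 24hpa cells, and the next level was 162 CPM in Bipotent Progenitor. The basement membrane collagen gene col4a1 had 3 and 137 UMIs (2.16 and 54.9 CPM), and clec3b, which encodes the plasminogen-binding protein tetranectin, 7 and 123 UMIs (5.05 and 49.3 CPM).

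Metabolic and secreted protein genes made up much of the rest. The fatty acid elongase gene elovl6 was at 6.49 CPM (2.97 to 12.3) in uninjured and 51.7 CPM (43.2 to 61.5) in 24hpa cells, and atic, which encodes the enzyme of the final steps of purine synthesis, at 23.8 CPM (16.4 to 33.4) and 178 CPM (162 to 195). The secreted chaperone gene clu was at 40.4 and 302 CPM and the pentraxin gene ptx3 at 13.7 and 73.0 CPM. For clu the direction was not particular to the cluster, since its log2 ratio was also above 2 in Skeletal Muscle (2.99) and Myotome (2.69). The gene nop9, of ribosomal RNA maturation, had 8 and 80 UMIs. All 15 genes with the highest ratios stayed at least 2-fold higher without the sub-clusters held by 1 library, with log2 ratios of 2.40 to 5.37.

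Next to hes7.2 and msgn1, the 15 genes with the lowest ratios held matrix, receptor and secreted protein genes. The matrix protein gene tnn, tenascin N, had 312 UMIs in 44 uninjured cells and 0 at 24hpa, at least 187-fold lower, and aplnr, the apelin receptor gene, had 119 UMIs in 25 cells and 0, at least 71.4-fold lower, with 115 of the 119 in sub-cluster 6. The guidance cue gene sema3d had 100 and 1 UMIs, igsf10 197 and 5, msmb.2 179 and 2, and lrat, which encodes an enzyme that stores retinol as esters, 69 and 0. The proteoglycan gene epyc, with 431 and 14 UMIs, and otos, with 137 and 4, were also abundant in free RNA of the uninjured library (1562 and 1605 CPM) and less so at 24hpa (396 and 120 CPM). Without the sub-clusters held by 1 library, 11 of these 15 genes were still at least 2-fold lower, and aplnr, at -0.96, was not. For msgn1, LOC100487498 and LOC100498368-like too few UMIs were then left for a ratio. Log2 ratios of the genes that had one ran from -6.20 to -0.96.

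Matrix, stress and housekeeping genes differed less. In the matrix and adhesion list 4 of 27 genes were at least 2-fold higher and 6 lower (median -0.25). The fibrillar collagen genes were among those with more, col3a1 at 41.1 CPM (31.2 to 53.3) and 137 CPM (123 to 152) and col1a2 within 2-fold at 628 and 927 CPM. In the injury and stress list 2 of 28 were higher and 10 lower (median -0.73), but the median of the 15 genes left after thinning was 0.15. The cytokine feedback gene socs3 was at 83.7 CPM (69.2 to 100.4) and 206 CPM (188 to 224), and the chaperone gene hsph1 at 59.9 and 124 CPM. The immediate early gene fos was at 247 and 71.0 CPM, and was lower at 24hpa in the clusters of related name too, with log2 ratios of -1.24 in Myotome, -1.64 in Dermomyotome and -2.22 in Skeletal Muscle. The gene mycn, which encodes a growth-promoting Myc factor, was at 131 and 12.8 CPM.

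Glycolysis genes had a median of -0.04 (3 of 11 lower, 0 higher) and the 55 cytosolic ribosomal protein genes one of 0.19, with 0 called in either direction. The exception at the edge was rpl10a, at 9164 and 4789 CPM, a log2 ratio of -0.94 against -1.02 in the other cells. S phase genes had 1 of 25 higher and 1 lower (median -0.42), and G2M genes 0 of 29 higher and 4 lower (median -0.50).

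Genes of ribosomal RNA processing were chosen as a list after their values had been seen, because several were among the called genes. Of 48 with 50 UMIs, 31 were at least 2-fold higher and 0 lower (median 1.1), with sums of 6177 and 11898 CPM in the cluster and 3586 and 4895 CPM in the other cells. The gene npm1, which encodes nucleophosmin of the nucleolus, was at 1191 CPM (1134 to 1249) and 2408 CPM (2347 to 2469), and fbl, the fibrillarin gene, which methylates ribosomal RNA, at 406 and 918 CPM. The same list was higher in 27 of 48 cases in Myotome, but in 2 of 22 in Dermomyotome and 2 of 45 in Skeletal Muscle, where 9.64%, 2.91% and 5.26% of all genes were higher. A list of purine synthesis, chosen the same way, had 4 of 9 genes higher and 0 lower (median 0.60), with paics.1 at 36.8 CPM (27.4 to 48.4) and 166 CPM (151 to 183).

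Markers of several other cell types were lower at 24hpa with the somitic genes. The mesenchyme and fin list was an exception, with 1 of 5 genes at least 2-fold higher and 1 lower (1198 and 1392 CPM summed). Epidermal genes were at least 2-fold lower in 8 of 8 cases (1752 and 351 CPM summed), notochord genes in 5 of 5 (1100 and 187 CPM) and neural genes in 3 of 3 (252 and 43.7 CPM), whereas in the other cells these sums were 11851 and 10629, 12560 and 6269, and 2353 and 2905 CPM. Blood genes summed to 24.5 and 1.20 CPM and endothelial genes to 30.3 and 7.22 CPM, with none reaching 50 UMIs. Globin UMIs put the share of free RNA in the cluster at an estimated 5.36% in the uninjured and 2.38% in the 24hpa library, from 33 and 2 globin UMIs. With that share subtracted, log2 ratios of the progenitor genes were nearly as before, at -1.32 for myf5, -2.42 for wif1 and -1.64 for entpd2. The median of the sarcomere list was then -5.35 and that of the notochord list -4.15. The size of these medians is not reliable, because the 24hpa share rests on 2 globin UMIs and for tnni2 gave more than was measured. The epidermal, notochord and neural lists were highest in sub-cluster 6, of uninjured cells only, at 3845, 1156 and 390 CPM summed. The notochord list includes the tail bud gene t, 1 of its 5 lower genes, at 324 CPM in sub-cluster 6. The epidermal list includes krt8 and krt18, which of all clusters were highest in Notochord. Sub-cluster 1 was next at 962, 767 and 181 CPM. Without the sub-clusters held by 1 library, the log2 ratio of krt18 went from -1.86 to -0.58 and that of krt8 from -1.88 to -0.17. The genes krt12 and itln1 stayed at least 2-fold lower under every alternative run. The part of free RNA in these marker differences was not tested beyond this subtraction, nor was that of sub-cluster 6.

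The cells of the cluster varied among themselves, and 7 sub-clusters were drawn from principal components of genes centred in each library. They are described by their genes without a test, because they were built from them and because their settings were chosen after the data had been seen. Sub-cluster 6 held 29 uninjured cells and 0 at 24hpa. All 17 msgn1-positive, all 18 pcdh8.2-positive and all 9 mespa-positive uninjured cells lay in it, and its levels were 286 CPM of msgn1 and 1006 CPM of tnn. Of the 17 msgn1-positive cells, t was found in 14, hes7.2 in 16, aplnr in 15, and tnn and sp5l in all 17. The progenitor genes were rarer in these than in the other uninjured cells, with myf5 in 41.2% against 79.0% of cells, wif1 in 29.4% against 89.5% and chrd in 11.8% against 37.9%, and myog in none. A group of cells from 1 library may be a property of that library and not a type of cell.

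Sub-cluster 3 was nearly the reverse, with 3 uninjured and 34 cells at 24hpa. The gene msc, which encodes the bHLH repressor musculin, had 42 of its 44 UMIs in it, and c1qtnf3 was at 806 CPM against 42.1 CPM in the rest of the cluster. It also held most of col4a1 (109 against 11.4 CPM), fgfr4 (47.0 against 8.27 CPM), chrnd (110.5 against 22.1 CPM) and sox8 (62.4 against 14.8 CPM). These levels pool both libraries, so the contrasts partly repeat the difference between the libraries. For c1qtnf3, only 2 UMIs came from uninjured cells. In the 24hpa library chrnd had a UMI in 35 of the 53 c1qtnf3-positive cells (66.0%) and in 19.2% of the others. These cells were deep, with a median of 24226 UMIs over the sub-cluster.

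The other sub-clusters held cells of both libraries. Sub-cluster 2 (20 uninjured and 22 24hpa cells) followed the cell cycle, with 39 of 42 cells called in G2M, and was led by the mitotic genes hmmr and plk1. In sub-cluster 1 (32 and 21) 46 of 53 cells were called in S, and slc1a3 and sema3d were among its leading genes. Calls of S did not set it apart, since 32 of 37 cells of sub-cluster 3 had them too. Summed S phase genes were at 3008 CPM in sub-cluster 1 and 3563 CPM in sub-cluster 6. Sub-cluster 4 (21 and 11) was led by cfd, which encodes complement factor D, and by sox7 and bmp5, found in 11, 6 and 15 of its 32 cells. It also held the neurotrophin gene ntf3 (24 cells) at 148 CPM against 14.2 CPM in the rest and the adhesion gene ncam1 (28 cells). Over the whole cluster cfd had 17 uninjured and 85 24hpa UMIs, whereas ntf3 had 102 and 11. Whether these genes lay in the same cells was not tested. Sub-cluster 5 (19 and 11) had genes of tyrosine breakdown, with hpd-like.1 at 3684 CPM against 177 CPM and the aminotransferase gene tat at 479 CPM against 29.8 CPM. Both were higher still in the Mesenchyme cluster, at 8941 and 3804 CPM (hpd-like.1) and 736 and 572 CPM (tat) in uninjured and 24hpa cells. The mesenchyme and fin list was also highest in sub-cluster 5, at 3667 CPM summed, with sub-cluster 1 next at 1738 CPM. Sub-cluster 7 (17 and 6) was the one with myogenic differentiation genes, unc45b at 149 CPM against 3.34 CPM, rbm24 at 736 CPM against 64.4 CPM and myog at 86.4 CPM, and 12 of its 23 cells were in G1. The chrd-positive cells of both libraries lay mainly in sub-clusters 1, 2, 4 and 5 (14, 14, 11 and 15 cells), with 3 in sub-cluster 6, and only 2 cells had a UMI of both msgn1 and chrd.

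**Figure D5:**
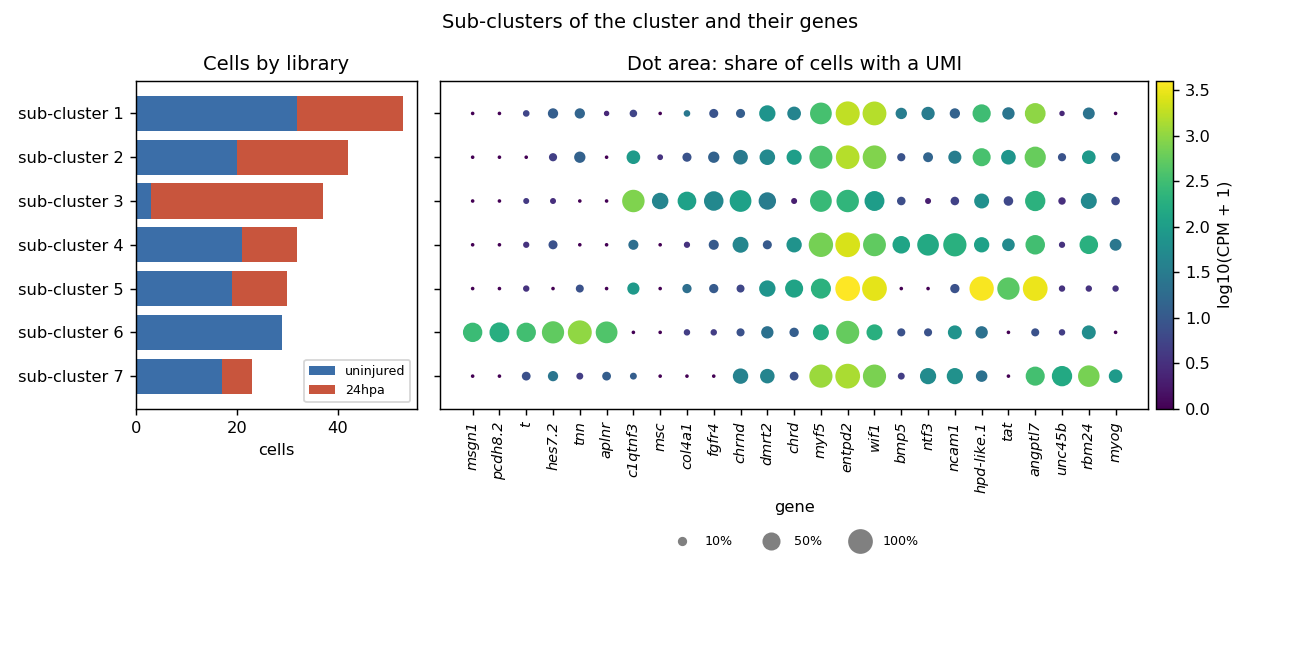
Left, number of uninjured (blue) and 24hpa (red) cells in each of the 7 sub-clusters. Right, level of named genes in each sub-cluster as log10(CPM + 1) (colour) and share of its cells with a UMI (dot area). The genes msgn1, pcdh8.2 and tnn were highest in sub-cluster 6 (29 uninjured cells and 0 at 24hpa), in 58.6%, 62.1% and 93.1% of its cells. The genes c1qtnf3 and msc were highest in sub-cluster 3 (3 and 34 cells), in 81.1% and 40.5% of its cells.

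Differences between the libraries were also present within the 4 sub-clusters that held at least 10 cells of each. In sub-clusters 1, 2, 4 and 5, the log2 ratio of wif1 was -2.59, -2.28, -0.95 and -1.87, and that of myf5 -0.94, -0.89, -2.08 and -1.63. For hoxa13 it was -2.70, -2.85, -2.35 and, as an upper bound, -2.89. The nucleolar gene npm1 was higher in each by 0.92, 0.86, 1.08 and 0.91, and clu by 2.56, 2.49, 3.63 and 4.35. The direction of each of these genes was thus the same in each of the 4 groups of cells, although its size was not. Left without sub-clusters 3 and 6, the cluster had 109 uninjured and 71 24hpa cells, and 334 of 4158 genes were at least 2-fold higher and 489 lower, of which 271 and 457 were also called over all cells of the cluster (81.1% and 93.5%). These were 75.5% of the 359 genes called higher and 59.4% of the 770 called lower over all cells. Of the genes near 2-fold, npm1 (from 1.02 to 0.97) and kal1 (from -1.03 to -0.82) were then within it.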

How the data were processed

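Single cells were captured with 10x Genomics 3′ chemistry, and the authors made the deposited UMI counts with Cell Ranger as unfiltered matrices. The submitters' processing notes name the build GRCz11, a zebrafish assembly, whereas the gene identifiers begin with Xetrov, of X. tropicalis. The build behind the counts was not settled, and gene names were used as deposited. Clusters, S and G2M scores and phases were deposited by the authors, who computed each score in Seurat as the mean of a phase's genes minus control genes after joining the libraries. No column of per-sample values was left unused (0).

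The library totals were 48622597 and 32798976 UMIs. Counts were summed per library over the cluster's cells. Ratios have exact conditional, CPM exact Poisson, and shares exact Clopper-Pearson 95% intervals. A gene was called at 2-fold with at least 50 UMIs, and 0 UMIs were set to 3. Thinned shares are expectations over all thinnings. Sub-clusters came from scikit-learn 1.9.0, igraph 0.11.9 and leidenalg 0.10.2 (10 components, resolution 1), and doublet calls from scanpy 1.11.5, under Python 3.11.15. The ratios with their intervals and calls, and the sub-clustering, were tested on simulated data, and the other steps were not. Sub-clustering by the same method also split simulated cells that had no structure.

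Members and gene lists were chosen with earlier results of these data known. The text names the 4 markers, list members with at least 20 UMIs in the 4 somitic lists, the 4 largest ratios of each other list, the 20 genes most above other cells, the 15 highest and 15 lowest ratios with intervals that do not overlap, and pax6. Named outside this rule, after values were seen, were 26 further genes with values, such as msc, npm1 and fbl, and the mitotic genes hmmr and plk1. Alternatives were TMM scaling, other minimums of UMIs, thinning, means of CPM per cell, leaving out doublets, shallow or deep cells, subtracting free RNA and, added after seeing the data, leaving out sub-clusters with at least 90% of cells from 1 library.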

Additional observations from a re-analysis of the deposited data

Results flagged for a closer look

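Of the named genes, 5 had a ratio at least 2-fold in one direction in the cluster and at least 2-fold in the other direction over the other cells. The difference between the directions was not tested, and the make-up of the other cells differed between the libraries. The retinoic acid degrading enzyme gene cyp26b1 had a log2 ratio of -4.38 in the cluster (41.8 and 2.01 CPM) and 2.24 in the other cells (4.96 and 23.4 CPM). The forkhead gene foxc2, of sclerotome and other mesoderm, had -2.45 in the cluster (144 and 26.5 CPM) and 1.06 in the other cells (21.1 and 43.8 CPM). At 24hpa, Myotome held 299 of the 318 UMIs of cyp26b1 and 507 of the 596 of foxc2 in the other cells. Myotome had 81 uninjured and 184 24hpa cells. Within Myotome both genes were lower at 24hpa, cyp26b1 at 120 and 93.3 CPM and foxc2 at 230 and 158 CPM. The neuronal gene stmn2 had -1.85 (33.2 and 9.22 CPM) and 1.08 (488 and 1029 CPM), and the anosmin gene kal1 -1.03 (412 and 202 CPM) and 1.37 (9.92 and 25.7 CPM). The acetylcholine receptor gene chrnd was the only one of the 5 that was higher in the cluster, at 1.12 (25.3 and 54.9 CPM) against -1.25 in the other cells (73.4 and 30.8 CPM). Among all 4972 genes compared in both, 30 had opposite directions of at least 2-fold, 5 of them higher and 25 lower in the cluster.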

How the results depend on the processing

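No paired analysis was possible because each condition had 1 library, and for the same reason no replicate could be left out. The 359 genes at least 2-fold higher became 120 of 1652 when each cell was thinned and 736 of 8753 with no filter other than 1 UMI, and the 770 lower ones became 161 and 2108. With a minimum of 20 UMIs 1284 were lower, and without the sub-clusters held by 1 library 489. The median log2 ratio of the presomitic list was -4.04 thinned (1 gene), -4.12 at 20 UMIs, -4.01 with no filter and -2.25 without those sub-clusters (1 gene). That of the clock list was -2.10 (3 genes), -3.72, -3.69 and -2.27 (5 genes). The share of cells with dmrt2 was 7.90% uninjured and 13.2% at 24hpa thinned, and 6.38% and 31.4% with at least 2 UMIs. For chrd these were 18.6% and 3.19%, and 19.9% and 4.76%, and pcdh8.2 was in 7.66% of thinned uninjured cells. Of 171 named genes, 10 changed direction, 6 of them within 2-fold (-0.36 to 0.37) and 4 past it, the cause of which was not tested: pax6 with CPM averaged per cell (0.58), tubb3 averaged per cell or thinned (0.0097), and chrnd (-0.45) and cldn6.2 (1.68) without the sub-clusters held by 1 library. The median of the injury and stress list moved from -0.73 to 0.15 on thinning. Of the 138 genes past 2-fold, 134 kept their direction under every alternative that gave a ratio, and 108 stayed past 2-fold. For genes such as msgn1, pcdh8.2 and mespa, leaving out the sub-clusters held by 1 library removed all UMIs. They had no ratio there, so their place in these counts does not rest on that alternative.

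Depth limits the rare genes: in 105 cells at 24hpa, 0 positive cells allow a share of cells with a UMI of up to 2.86%, which is no limit on cells that express the gene. Shallower uninjured cells make their shares of positive cells too low beside 24hpa. Free RNA limits muscle, epidermal and notochord genes, whose ratios moved most on its subtraction (krt5.7 from -3.93 to -8.20, mylpf from -2.01 to -7.93). These subtracted ratios are no measure of size. The 24hpa share rests on 2 globin UMIs, and levels that subtraction took to 0 were set to 3 UMIs.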

Other observations

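Genes of tyrosine breakdown, a list chosen after values were seen, did not move together between the libraries, with 1 of 6 higher, 1 lower and a median log2 ratio of -0.31, although they led sub-cluster 5. The enzyme gene hpd-like.1 was at 618 CPM (577 to 660.4) in uninjured and 523 CPM (495 to 552) in 24hpa cells, and tat at 109.7 and 61.0 CPM. Only gstz1-like, of the same pathway, was at least 2-fold higher, at 78.6 CPM (64.6 to 94.9) and 176 CPM (160.4 to 194).

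The groups of cells from 1 library were found under other settings of the sub-clustering as well. At a resolution of 0.5 the cluster fell into 5 sub-clusters, of which the one led by aplnr and msgn1 held 29 uninjured and 0 24hpa cells and the one led by msc and c1qtnf3 held 2 and 27. With 15 components there were 7, in which these groups held 32 and 0 cells and 4 and 39 cells.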
